A study of Mus musculus with 6 samples.

Results

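The 10 genes described here encode the Myc, Max and Mxd network of transcription factors: the activators Myc, Mycn and Mycl, the shared dimer partner Max, the Max-binding repressors Mxd1, Mxd4, Mxi1, Mnt and Mga, and the Max-like protein Mlx. They were taken by symbol from the 51912 genes counted in each library. All 10 were found once each and passed the filter on low counts. The cells came from the aorta-gonad-mesonephros (AGM) of E10.5 mouse embryos, the tissue where the earliest haematopoietic stem cells arise beside the dorsal aorta. The embryos were of the MacGreen strain, whose Csf1r-EGFP transgene marks macrophages and some of their precursors with GFP, and all cells sequenced were GFP-positive. Those that carried the mannose receptor CD206 on their surface are called CD206pos and those that did not are called CD206neg. Each population gave 3 libraries, 1 from each of 3 litters, and each library pooled 3 to 5 AGM.

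Myc, Mycn and Mycl carry a basic helix-loop-helix leucine zipper, bind DNA at E-boxes as dimers with Max, and raise the transcription of genes for ribosome assembly, metabolism and cell cycle entry. Mxd proteins, Mxi1 and Mnt compete for Max at the same sites and bring in Sin3 and histone deacetylases, and Mga joins Max to a polycomb complex. Mlx pairs with Mondo proteins, which respond to glucose, and with some Mxd proteins and Mnt. In mouse blood formation Myc and Mycn are both used by stem and progenitor cells, and Mxd1 is known for rising as myeloid cells mature.

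Promoter sequence is shown for the E-box, which the network binds, and for Mycn, the member on which the results turn. RefSeq promoter windows (GRCm38.p6, 250 bases before to 50 after each start) were available for 9 of the 10 genes, all but Myc, in 11 windows. The E-box CACGTG, which reads the same on both strands, was found in the windows of Max, Mlx, Mnt and Mxd4, that is in 36.4% of the members' windows against 7.15% of all 32851 windows. The 30 bases around each of these are given 5′ to 3′ on the gene's strand, with the E-box in capitals.
Max (chr12:76962234-76962263, minus strand): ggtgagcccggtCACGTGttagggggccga
Mlx (chr11:101087238-101087267, plus strand): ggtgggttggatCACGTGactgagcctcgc
Mnt (chr11:74830789-74830818, plus strand): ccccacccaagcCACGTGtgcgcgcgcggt
Mxd4 (chr5:34187912-34187941, minus strand): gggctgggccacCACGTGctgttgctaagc
The Max E-box spans the annotated start itself, from 3 bases before it, while the Mlx, Mnt and Mxd4 E-boxes begin 40, 123 and 219 bases before theirs.

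Mycn, the member that differed most between the populations, had no CACGTG in its window. It held 3 matches to the E2F-type motif, searched as TTTGGCGC, TTTGCCGC, TTTCGCGC and TTTCCCGC on both strands, of which the first 2 overlap on opposite strands. At least 1 such match was in 2.26% of all windows, and 3 or more were in 4 of the 32851 windows. Among genes of DNA replication, which E2F factors are known to drive, 6 of 12 windows held a match. The Mycn window is given on the gene's strand with the matches in capitals.
Mycn (chr12:12941787-12942086, minus strand): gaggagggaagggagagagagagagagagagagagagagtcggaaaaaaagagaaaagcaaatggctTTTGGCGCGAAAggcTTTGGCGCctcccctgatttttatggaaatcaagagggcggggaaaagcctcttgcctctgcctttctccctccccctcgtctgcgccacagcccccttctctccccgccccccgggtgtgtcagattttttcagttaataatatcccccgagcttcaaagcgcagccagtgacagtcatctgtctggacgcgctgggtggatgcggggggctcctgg
A match is a stretch of letters and was not tested as a binding site.

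Libraries held 16730846 to 18214283 reads in genes, so that 3 reads, taken as the floor of detection, stand for 0.165 to 0.179 CPM (reads per 1000000 reads in genes). Values are CPM scaled by TMM, an estimate of relative library size that is robust to a few strongly changed genes, and errors are SD over 3 libraries. The sorted antigen checks the labels: Mrc1, which encodes CD206, averaged 1583 ± 181 CPM in CD206pos and 93.7 ± 36.7 CPM in CD206neg. Csf1r and Ptprc, on the list of 10 macrophage markers, were detected in every library. The summed level of the 10 was 6309 to 9380 CPM in CD206pos and 4250 to 5137 CPM in CD206neg. All 10 had positive log2 fold changes, and 5 were called higher in CD206pos (edgeR, adjusted p under 0.05). Of all tested genes 2.97% were called higher, so the macrophage markers also differed between the populations. CD206neg libraries carried more RNA of markers of other blood cells and of endothelium. Called lower in CD206pos were 5 of 8 blood progenitor, 7 of 7 tested granulocyte precursor, 3 of 6 tested megakaryocyte and 1 of 8 endothelial markers. Of all tested genes 1.90% were called lower. Summed over 8 blood progenitor markers the level was 25.6 to 54.9 CPM in CD206pos and 686 to 986 CPM in CD206neg, and over 9 granulocyte precursor markers it was 17.5 to 69.9 CPM in CD206pos and 1864 to 2869 CPM in CD206neg. Over 8 megakaryocyte markers it was 1.28 to 9.95 CPM in CD206pos and 84.4 to 120.3 CPM in CD206neg, over 8 endothelial markers 37.3 to 64.3 and 136 to 266 CPM, over 8 mesenchymal markers 2.35 to 61.3 and 8.86 to 81.3 CPM, and over 10 erythroid markers 3.18 to 5.26 and 3.64 to 5.34 CPM. Of the defining markers, Kit had 0 reads in all CD206pos libraries, as did Gfi1b, Gata1 and Gp1bb among the megakaryocyte markers and Ctsg, Ms4a3, S100a8, S100a9 and Fcnb among the granulocyte precursor markers. In pooled RNA of this kind, fewer cells of a type and less RNA per cell cannot be told apart, and the part of these cells in the results that follow was not tested.

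Per kb of exon, Myc was the highest member in both populations, and the order of the rest differed by the places of Mycn and Mycl. Mean levels in CD206pos were 95.7 CPM per kb for Myc, 38.0 for Mlx, 14.7 for Max and 7.73 for Mxd1. Mga, Mxi1, Mxd4 and Mnt followed at 2.00, 1.61, 1.48 and 1.30 CPM per kb, and Mycn and Mycl came last in CD206pos at 0.252 and 0.227. In CD206neg the means were 129.8 CPM per kb for Myc, 34.4 for Mlx, 15.7 for Mycn, 15.6 for Max and 4.65 for Mxd1, and Mga, Mycl, Mxi1, Mxd4 and Mnt lay between 2.67 and 1.25. Neighbours in the order whose library ranges did not overlap were Myc and Mlx in both populations, Mlx and Max, Mxd1 and Mga, and Mnt and Mycn in CD206pos, and Mlx and Mycn, Max and Mxd1, and Mxd1 and Mga in CD206neg. The other neighbours did not differ beyond their spread. Among the 12668 genes tested, Myc lay at the 94.7th percentile of level per kb in CD206pos and at the 96.6th in CD206neg, while Mycn lay at the 7.25th and the 71.0th.

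**Figure D1:**
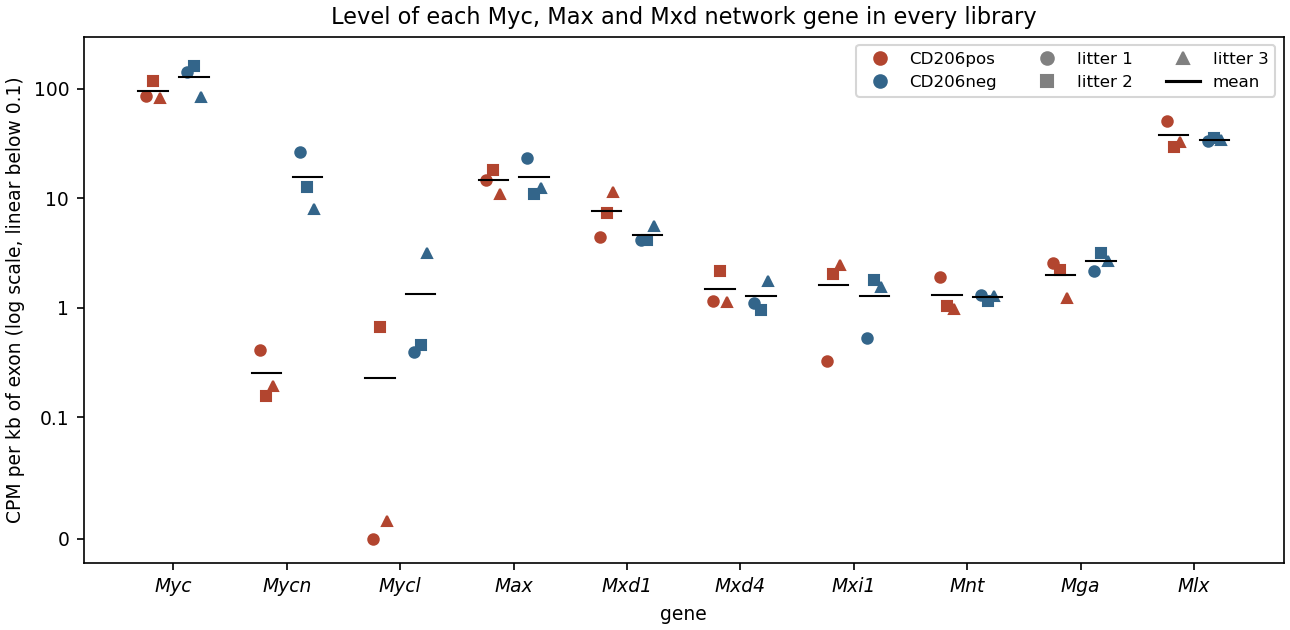
Level of each of the 10 genes in CPM per kb of exon (log axis, linear below 0.1) in the 3 CD206pos and 3 CD206neg libraries, with the mean as a bar and the litter as the marker shape. Mycn is the member whose CD206pos libraries (0.156 to 0.408) all lie below its CD206neg libraries (7.97 to 26.3); the ranges of the other 9 overlap.

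Of the 10 members, 1 fell in CD206pos and 9 did not pass the test (edgeR's quasi-likelihood test over all 12668 genes, Benjamini-Hochberg adjusted p under 0.05). Of all tested genes 4.87% passed, with 376 higher and 241 lower in CD206pos, or 273 higher and 284 lower when library totals were the only scaling. The member that fell was Mycn, and 1.90% of tested genes were called lower. The median log2 fold change of the members was -0.01, beside -0.0043 over all tested genes. Scaled levels of the groups did not overlap for 1 of the 10 members and for 24.6% of the tested genes.

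**Figure D2:**
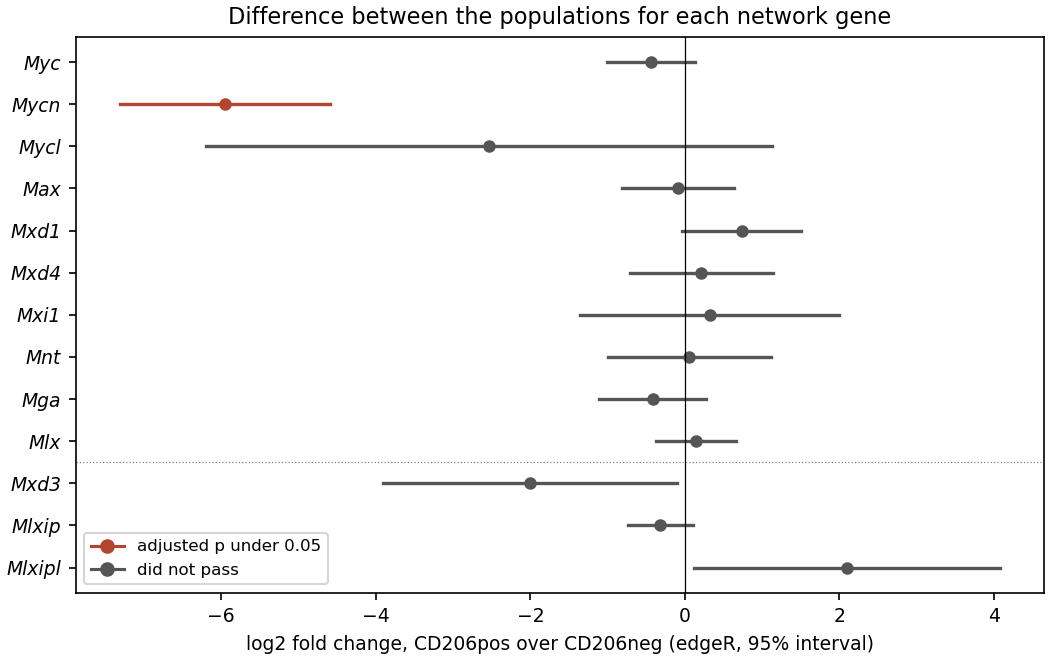
Log2 fold change of CD206pos over CD206neg with its 95% interval for the 10 members and, below the dotted line, the other genes of the network (edgeR, 3 libraries each). The Mycn interval, -7.31 to -4.59, lies far from 0, and the other members' intervals include 0.

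Mycn, the Myc family member named for neuroblastoma and widely used in embryonic progenitors (ENSMUSG00000037169.15, GRCm38 chromosome 12, 12936093 to 12941914, minus strand), was almost undetected in CD206pos. It had 22, 9 and 11 reads in the CD206pos libraries of litters 1, 2 and 3, against 1593, 727 and 467 reads in the CD206neg libraries. In CPM these are 1.34, 0.515 and 0.635 in CD206pos, against 86.6, 42.0 and 26.3 in CD206neg. Every CD206neg library was above every CD206pos library, and within CD206neg litter 1 was high and litter 3 low. The means were 0.831 ± 0.448 CPM in CD206pos and 51.6 ± 31.3 CPM in CD206neg (SD, n = 3 each), which gives -5.95 ± 0.60 on the log2 scale (SE; edgeR, adjusted p = 0.0016), lower in 3 of 3 litters. Mean Mycn was 62.1-fold lower in CD206pos. Within litters 1, 2 and 3 it was 64.5-fold, 81.6-fold and 41.3-fold lower, with exact binomial 95% intervals of 42.4 to 103, 42.8 to 179 and 22.9 to 83.4 that cover counting error only. Mycn missed the threshold under limma-voom, at -5.93 on the log2 scale and an adjusted p of 0.051. It also missed it when both libraries of litter 2 were set aside, at -5.87 and an adjusted p of 0.081, a fit that called 3 genes in all.

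Markers of other blood cells were also lower in CD206pos, as given above, and their part in the Mycn difference was not tested. In the CD206neg libraries of litters 1, 2 and 3, Mycn was at 86.6, 42.0 and 26.3 CPM. There the blood progenitor markers summed to 986, 717 and 686 CPM and the granulocyte precursor markers to 1864, 2653 and 2869 CPM. The megakaryocyte markers summed to 120.3, 88.2 and 84.4 CPM and the endothelial markers to 266, 136 and 143 CPM. The mesenchymal markers summed to 8.86, 13.7 and 81.3 CPM and the erythroid markers to 4.79, 3.64 and 5.34 CPM. The stem cell factor receptor gene Kit was at 73.1, 102 and 72.8 CPM in these libraries and had no read in CD206pos, where Mycn had 42 reads in all. Over the 6 libraries, the profiles most like that of Mycn were those of the tubulin gene Tuba8, the erythroid and megakaryocyte repressor gene Gfi1b and the organic cation transporter gene Slc22a3. Their centred log2 profiles (CPM with 0.5 added) differed from that of Mycn by a root mean square of 0.39, 0.45 and 0.52, against a spread of 2.65 for Mycn itself. Of the genes within 500 kb of Mycn, chosen by position after its values were seen, Ddx1 and Nbas were tested and did not pass. Ddx1, an RNA helicase gene 275.1 kb away, averaged 385 ± 24.4 CPM in CD206pos and 473 ± 83.9 CPM in CD206neg (adjusted p = 0.38, edgeR), and Nbas, 327.2 kb away, averaged 18.5 ± 4.83 and 15.4 ± 4.75 CPM (adjusted p = 0.78).

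Myc, the founding member of the family (ENSMUSG00000022346.15, GRCm38 chromosome 15, 61985391 to 61990374, plus strand), was abundant in both populations. It was at 234, 320 and 226 CPM in the CD206pos libraries of litters 1, 2 and 3, against 386, 444 and 227 CPM in the CD206neg libraries. The groups overlapped: in litter 3 the 2 values were nearly equal, and in litters 1 and 2 the CD206pos value was lower. Means were 260.0 ± 51.9 CPM in CD206pos and 353 ± 112 CPM in CD206neg, with a log2 fold change of -0.44 and a 95% interval of -1.01 to 0.13 (adjusted p = 0.44, edgeR). With the litter as a block the unadjusted p was 0.037 and the adjusted p 0.21. The profiles most like that of Myc over the 6 libraries were those of Slc25a23, a mitochondrial carrier gene, Flywch1 and Zfp951, at root mean square differences of 0.08, 0.10 and 0.11 against a spread of 0.39 for Myc. Slc25a23 was low, at a mean of 1.15 CPM in CD206pos and 1.95 CPM in CD206neg. The long non-coding RNA gene Pvt1, 47.6 kb from Myc, averaged 9.55 ± 2.21 CPM in CD206pos and 9.38 ± 4.55 CPM in CD206neg (adjusted p = 0.99).

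**Figure D3:**
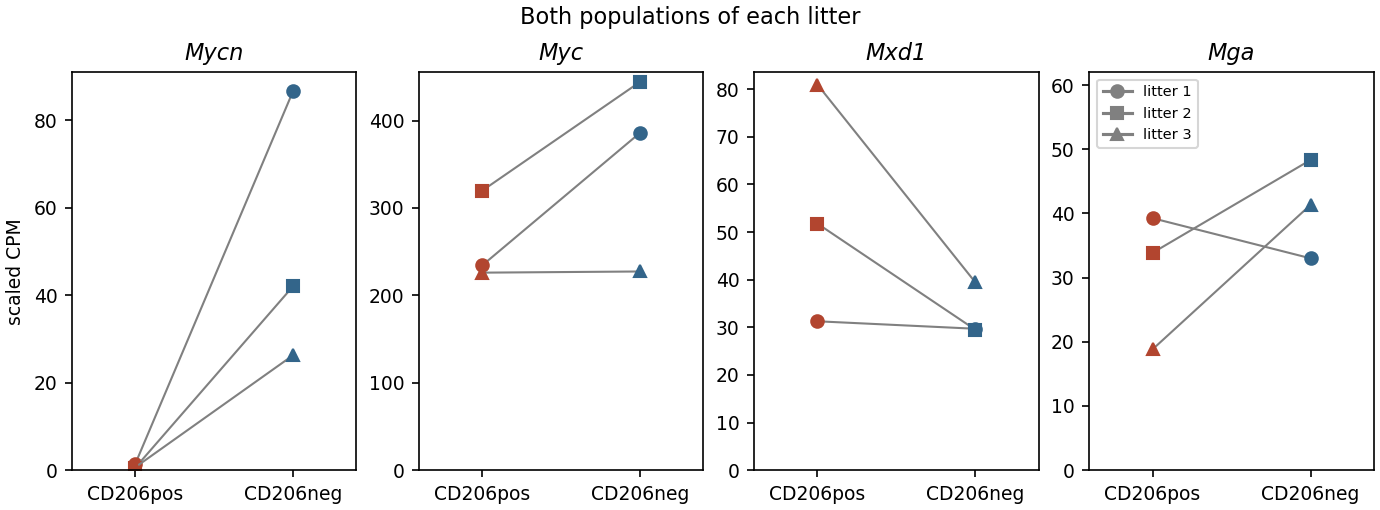
Scaled CPM of Mycn, Myc, Mxd1 and Mga in both populations of each litter, joined by a line per litter. All 3 Mycn lines are higher in CD206neg, the Myc lines are higher in CD206neg for litters 1 and 2 and level for litter 3, the Mxd1 lines are higher in CD206pos for litters 2 and 3 and close to level for litter 1, and the Mga lines cross.

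Mycl (ENSMUSG00000028654.13, chromosome 4, 122995652 to 123002485, plus strand), first described in lung cancer and known in mice for a role in dendritic cells, was scarce and uneven. It had 0, 47 and 1 reads in the CD206pos libraries, against 29, 32 and 225 reads in the CD206neg libraries. The CD206neg library of litter 3 was high, and in litter 2 the CD206pos library had more reads than its CD206neg partner. The log2 fold change of -2.54 had a 95% interval of -6.20 to 1.12 (adjusted p = 0.49, edgeR), so these libraries allow a large difference in either direction.

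Of the summed level of Myc, Mycn and Mycl per kb, Mycn made up 0.471%, 0.132% and 0.231% in the CD206pos libraries of litters 1, 2 and 3, against 15.6%, 7.22% and 8.41% in the CD206neg libraries. Myc made up 99.3% to 99.8% in CD206pos and 84.2% to 92.5% in CD206neg. The summed level of the 3 genes was 86.6, 119 and 83.4 CPM per kb in CD206pos, against 169, 177 and 94.8 CPM per kb in CD206neg. It lay above that of Max in every library, at 5.83, 6.53 and 7.56 times Max in CD206pos and at 7.24, 16.1 and 7.60 times Max in CD206neg. These shares describe RNA and were not tested.

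Max (ENSMUSG00000059436.13, chromosome 12, 76937269 to 76962201, minus strand), the obligate partner of the Myc proteins and of their antagonists, was at 53.4, 65.3 and 39.7 CPM in CD206pos, against 83.9, 39.4 and 44.9 CPM in CD206neg. The groups overlapped, and Max was higher in CD206pos in 1 litter and lower in 2. Its log2 fold change was -0.09 with a 95% interval of -0.82 to 0.64 (adjusted p = 0.94, edgeR). Mlx (ENSMUSG00000017801.15, chromosome 11, 101087277 to 101092207, plus strand), the partner of the Mondo proteins, was at 102, 59.4 and 65.8 CPM in CD206pos, against 67.3, 70.8 and 67.9 CPM in CD206neg. Its interval, -0.37 to 0.66, was the narrowest of the 10 (log2 fold change 0.14, adjusted p = 0.83). The sign of the Max difference turned with limma-voom and of the Mlx difference likewise, and both turned when some single libraries were left out. Of the Mlx exons, 19.3% of the bases are shared with Psmc3ip on the other strand, and counting was without strand, so reads there were assigned to neither gene.

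Mxd1 (ENSMUSG00000001156.9, chromosome 6, 86647042 to 86669161, minus strand), the Max-binding repressor that rises as myeloid cells mature, had the largest positive log2 fold change among the members without passing the test. It was at 31.3, 51.8 and 81.0 CPM in the CD206pos libraries of litters 1, 2 and 3, against 29.7, 29.5 and 39.4 CPM in the CD206neg libraries. CD206pos was higher in 3 of 3 litters, by 1.05, 1.76 and 2.05 times, but its litter 1 value lay within the CD206neg range. The log2 fold change was 0.73 with a 95% interval of -0.032 to 1.499 (adjusted p = 0.31, edgeR). With the litter as a block in edgeR it was 0.64, with an unadjusted p of 0.035 and an adjusted p of 0.20. Single libraries moved the value of the fit without the block, to 0.31 with CD206pos replicate 3 left out (adjusted p = 0.75) and to 1.01 with CD206pos replicate 1 left out (adjusted p = 0.093).

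Mga (ENSMUSG00000033943.15, chromosome 2, 119897228 to 119969581, plus strand), the largest member, which also carries a T-box domain, was at 39.3, 33.9 and 18.8 CPM in CD206pos, against 33.0, 48.3 and 41.3 CPM in CD206neg. It was lower in CD206pos in litters 2 and 3 and higher in litter 1, and the log2 fold change of -0.42 had an interval of -1.11 to 0.28 (adjusted p = 0.57, edgeR). The remaining Max-binding repressors were low: Mxd4 (ENSMUSG00000037235.13, chromosome 5, 34173883 to 34187720, minus strand), Mxi1 (ENSMUSG00000025025.13, chromosome 19, 53310506 to 53375810, plus strand) and Mnt (ENSMUSG00000000282.12, chromosome 11, 74830920 to 74845725, plus strand). Mxd4 ranged from 9.59 to 18.25 CPM in CD206pos and from 8.09 to 15.02 CPM in CD206neg, Mxi1 from 1.83 to 13.8 and from 2.94 to 10.1 CPM, and Mnt from 4.50 to 8.79 and from 5.32 to 6.04 CPM. Their log2 fold changes were 0.21, 0.32 and 0.06, with adjusted p values of 0.87, 0.89 and 0.98 (edgeR) and intervals that reach 1.14, 2.00 and 1.11 upwards. Both Mxi1 libraries of litter 1 were low, with 30 reads in CD206pos and 54 in CD206neg. Mxd4 and Mxi1 share 6.06% and 3.45% of their exon bases with other genes.

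Among Mxd1, Mxd4, Mxi1 and Mnt, Mxd1 made up most of the RNA per kb in every library. Of the summed level of Mxd1, Mxd4, Mxi1 and Mnt per kb, Mxd1 took 56.7%, 58.4% and 71.5% in CD206pos, against 59.0%, 51.6% and 54.8% in CD206neg. The summed Myc family stood at 11.1, 9.45 and 5.21 times the summed Mxd and Mnt level in the CD206pos libraries of litters 1, 2 and 3, against 23.7, 21.9 and 9.31 times in the CD206neg libraries. The ratio was lower in CD206pos within each litter, and the groups overlapped, since the litter 3 CD206neg library lay below the litter 1 and litter 2 CD206pos libraries. The ratio rests on the chosen members, which leave out the repressor gene Mxd3, and was not tested.

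The 3 genes of the network outside the list above were Mxd3, Mlxip and Mlxipl, and none passed the test in edgeR (DESeq2 and limma-voom called 0). At an unadjusted p under 0.05 in edgeR, 1 was higher and 1 lower, beside 9.53% higher and 8.05% lower over all tested genes. Mxd3, a Max-binding repressor known for its expression in cycling cells, was at 1.16, 0.29 and 1.91 CPM in CD206pos, against 3.21, 4.74 and 5.57 CPM in CD206neg (adjusted p = 0.26). Mlxip, which encodes the Mondo protein MondoA, was at 106, 91.9 and 72.0 CPM in CD206pos, against 116, 119 and 102 CPM in CD206neg (adjusted p = 0.45). Mlxipl, which encodes its paralog ChREBP, was at 2.56, 6.52 and 2.66 CPM in CD206pos, against 0.33, 1.45 and 0.96 CPM in CD206neg (adjusted p = 0.25). The Mxd3 and Mlxipl groups did not overlap, the first lower and the second higher in CD206pos, as was so for 24.6% of all tested genes. Mxd3 had 57 reads in all in CD206pos and 240 in CD206neg, and Mlxipl had 202 in CD206pos and 48 in CD206neg.

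Of 18 genes whose products act with Myc or control its turnover, 1 rose and 17 did not pass (median log2 fold change -0.16). Of all tested genes 2.97% were called higher. At an unadjusted p under 0.05 in edgeR, 2 of the 18 were higher and 4 lower, beside 9.53% higher and 8.05% lower over all tested genes. With the litter as a block, where 5.55% of tested genes were called, 1 more passed, the ATPase gene Ruvbl2, which fell. The one that rose was Bin1, which encodes an endocytic adaptor first found through its binding to Myc. Bin1 was at 254, 282 and 265 CPM in the CD206pos libraries, against 75.0, 78.9 and 78.5 CPM in the CD206neg libraries, so that the groups stood 3.45-fold apart with little spread (log2 fold change 1.78 ± 0.13, SE, adjusted p = 0.00077, edgeR). None of 11 Sin3 and histone deacetylase corepressor genes passed in edgeR (median -0.30), with 1 unadjusted p below 0.05; DESeq2 and limma-voom called 0. Their highest members, Rbbp7 and Rbbp4, which encode histone-binding subunits, averaged 835 ± 44.7 and 265 ± 32.8 CPM in CD206pos and 813 ± 42.4 and 255 ± 25.8 CPM in CD206neg. None of 9 partners of Mga in its polycomb complex passed in edgeR (median -0.19), and 1, Tfdp1, had an unadjusted p under 0.05. Tfdp1, which encodes the dimer partner of E2F factors, was at 90.1 ± 9.96 CPM in CD206pos and 134 ± 16.5 CPM in CD206neg (adjusted p = 0.10), and passed with DESeq2 and limma-voom (adjusted p = 0.017 and 0.0499). Rnf2, which encodes a polycomb ubiquitin ligase, averaged 106 ± 4.66 CPM in CD206pos and 101 ± 21.3 CPM in CD206neg (adjusted p = 0.91).

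Of 44 genes known to be activated by Myc, 3 fell in CD206pos, none rose and 41 did not pass in edgeR, where 1.90% of all tested genes were called lower. At an unadjusted p under 0.05, 12 were lower and 1 was higher, beside 8.05% lower and 9.53% higher over all tested genes. DESeq2 called 9 lower and limma-voom 6, with 0 higher, where they called 4.34% and 2.06% of all tested genes lower. Negative log2 fold changes numbered 38 of 44, with a median of -0.36, beside 6380 of 12668 and a median of -0.0043 over all tested genes. Scaled levels of the groups did not overlap for 11 of the 44, against 24.6% of all tested genes. The summed level was 16348 to 22410 CPM in CD206pos and 20344 to 26688 CPM in CD206neg, which overlap. This sum was lower in CD206pos within each litter and was not tested. With the litter as a block 11 of the 44 fell and none rose, where 2.11% of all genes were called lower, and the genes added were Nop58, Ncl, Srm, Ppan, Pa2g4, Shmt1, Bop1 and Nolc1. Of these, Nop58, Ncl, Ppan, Bop1 and Nolc1 serve ribosome assembly, and Ncl, encoding nucleolin, averaged 1679.8 ± 521 CPM in CD206pos and 2394 ± 485 CPM in CD206neg (adjusted p = 0.31, and 0.032 with the block).

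Ccnd2, which encodes the cell cycle entry cyclin D2, fell most, to 130.2, 111 and 70.5 CPM in the CD206pos libraries, against 579, 480.1 and 422 CPM in the CD206neg libraries. The groups were far apart, with a 4.76-fold lower mean and a log2 fold change of -2.25 ± 0.24 (SE, adjusted p = 0.0020, edgeR). Dkc1, encoding the pseudouridine synthase dyskerin, fell to 292 ± 39.4 CPM in CD206pos, against 505 ± 85.5 CPM in CD206neg (adjusted p = 0.034). Nop56, encoding a core protein of the box C/D ribonucleoproteins, fell to 393 ± 34.6 CPM in CD206pos, against 634 ± 115 CPM in CD206neg (adjusted p = 0.045). These calls are less firm than that of Ccnd2: leaving out a single library, whichever of the 6, ended that of Nop56 (adjusted p of 0.062 to 0.14), and leaving out any but CD206pos replicate 1 ended that of Dkc1 (adjusted p of 0.055 to 0.11). Of the list, 37 genes had a promoter window, and 11 of them held CACGTG (29.7%, against 8.09% of all genes in the table).

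**Figure D4:**
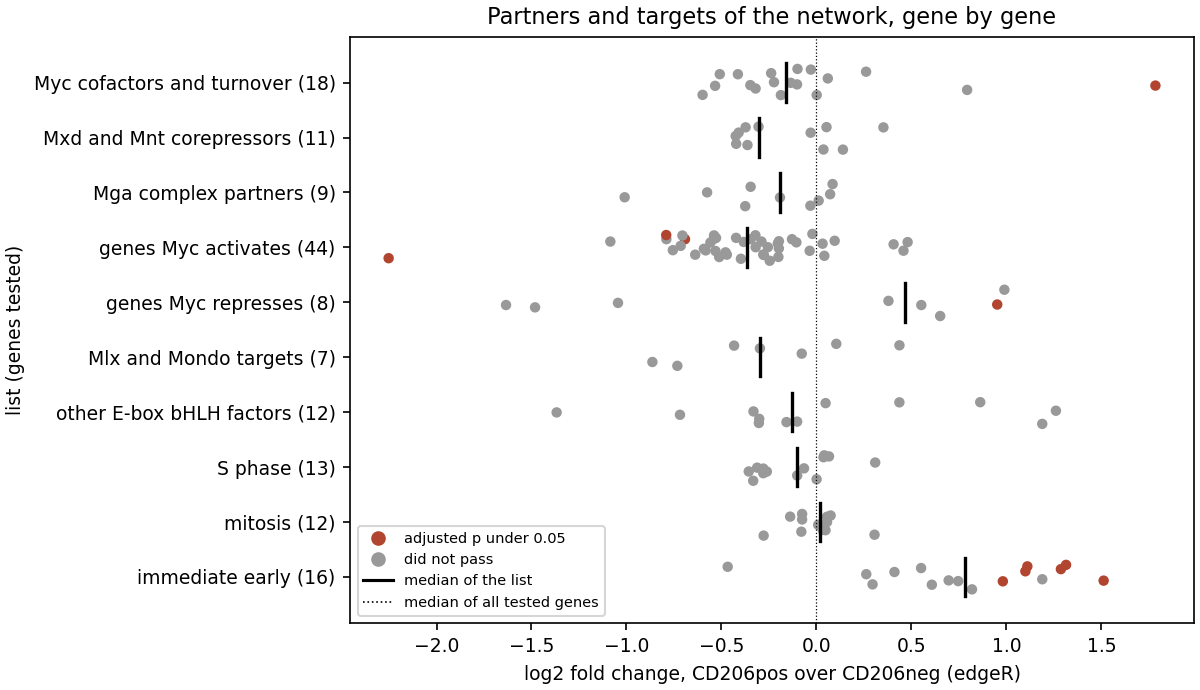
Log2 fold change of CD206pos over CD206neg for each tested gene of 10 lists of partners, targets and cell state genes, with genes past the threshold in red, the median of each list as a black bar and the median of all tested genes as a dotted line. The genes Myc activates sit mostly left of the dotted line (median -0.36), S phase and mitosis genes lie around it (-0.10 and 0.02), and immediate early genes lie to its right (0.78).

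Of 8 tested genes reported as repressed by Myc, 1 rose and 7 did not pass (median 0.47), where 2.97% of all tested genes were called higher. It was Fth1, encoding ferritin heavy chain, at 3835 ± 136 CPM in CD206pos and 1982 ± 149 CPM in CD206neg (log2 fold change 0.95 ± 0.12, SE, adjusted p = 0.0034, edgeR). Log2 fold changes of the 8 ran from -1.63 to 0.99, with 5 positive and 3 negative. Scaled levels of the groups did not overlap for 1 of the 8, a share below that of all tested genes (24.6%). None of 7 tested genes of the Mlx and Mondo programme passed in edgeR (median -0.30), and DESeq2 and limma-voom called 0. At an unadjusted p under 0.05 in edgeR, 4 of the 7 were lower, beside 8.05% of all tested genes. Scaled levels of the groups did not overlap for 5 of the 7, against 24.6% of all tested genes. The highest of the 7 were the transketolase gene Tkt, at 616 ± 49.2 CPM in CD206pos and 757 ± 61.5 CPM in CD206neg (adjusted p = 0.27), and the citrate lyase gene Acly, at 537 ± 77.0 and 499 ± 84.4 CPM (adjusted p = 0.84). At an unadjusted p under 0.05 in edgeR, 2 of 12 other factors that bind E-boxes were higher, beside 9.53% of all tested genes. None of the 12 passed in edgeR (median -0.13), and DESeq2 and limma-voom called 0. The highest of these, the lysosomal regulator gene Tfe3 and the sterol regulator gene Srebf2, averaged 172 ± 10.2 and 82.5 ± 11.7 CPM in CD206pos and 127 ± 20.1 and 102 ± 18.9 CPM in CD206neg (adjusted p = 0.20 and 0.50).

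Myc activity is often linked with DNA replication and division. None of 13 S phase genes and none of 12 mitosis genes passed in edgeR (medians -0.10 and 0.02). At an unadjusted p under 0.05, 4 S phase genes were lower and 0 mitosis genes differed, beside 8.05% lower over all tested genes. DESeq2 and limma-voom called 0 of either list. Scaled levels of the groups did not overlap for 6 of the 13 S phase genes and 1 of the 12 mitosis genes, against 24.6% of all tested genes. The summed S phase level was 6465 to 6766 CPM in CD206pos and 6958 to 8064 CPM in CD206neg, so every CD206neg sum lay above every CD206pos sum. The summed mitosis level was 3488 to 3792 CPM in CD206pos and 3529 to 3643 CPM in CD206neg, which overlap. These sums were not tested. The replication helicase genes Mcm6 and Mcm3 averaged 1103 ± 128 and 862 ± 42.6 CPM in CD206pos and 1182 ± 148 and 1046 ± 84.5 CPM in CD206neg (adjusted p = 0.81 and 0.28). The mitotic genes Top2a and Cdk1 averaged 466 ± 68.3 and 412 ± 25.5 CPM in CD206pos and 463 ± 50.4 and 397 ± 48.5 CPM in CD206neg (adjusted p = 0.99 and 0.90), and their log2 fold changes had 95% intervals of -0.34 to 0.36 and -0.26 to 0.37. The sign of the Mcm6, Top2a and Cdk1 differences turned in some of the other fits.

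Myc is itself induced early after stimulation, but it did not pass here and its log2 fold change was negative (-0.44). Of 16 listed immediate early genes, 15 had a positive log2 fold change. Immediate early genes are also known to be induced by warm enzymatic dissociation of tissue, and its part in these values was not tested. Of the 16 genes, 6 rose in CD206pos and 10 did not pass (median 0.78), where 2.97% of all tested genes were called higher. With the litter as a block 7 rose, the one added being the AP-1 gene Fos, where 3.44% of all tested genes were called higher. Egr1, a zinc finger factor, averaged 826 ± 20.7 CPM in CD206pos and 289.6 ± 35.1 CPM in CD206neg (adjusted p = 0.0011, edgeR). Zfp36, which encodes an mRNA decay factor, averaged 524 ± 38.1 CPM in CD206pos and 265 ± 26.1 CPM in CD206neg (adjusted p = 0.0052). The phosphatase gene Dusp1 and the AP-1 gene Junb were 2.14-fold and 2.16-fold higher (adjusted p = 0.014 and 0.023). Leaving out replicate 2 or 3 of CD206pos, or 1 or 2 of CD206neg, ended the Dusp1 call (adjusted p of 0.051 to 0.096), and leaving out any CD206neg replicate ended that of Junb (0.074 to 0.12). Without both libraries of litter 2 none of the calls named for the lists held (adjusted p between 0.075 and 0.31, edgeR). Without those of litter 3 the calls of Bin1, Ccnd2 and Egr1 held. The other listed calls were lost, among them those of Fth1 and Zfp36 (adjusted p = 0.060 and 0.075, edgeR).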

How the data were processed

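The 6 libraries of RNA from sorted GFP-positive AGM cells were 3 CD206pos and 3 CD206neg. The authors deposited whole-number read counts per gene, made with featureCounts 1.5.2 on GENCODE vM14 exons without strand, multimapping or overlap options, per the file headers. STAR 2.3 and GRCm38.p5 are named in the submitters' processing notes. Symbols matched 51633 of 51912 gene IDs. Promoter windows came from RefSeq (GRCm38.p6).

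Counts were scaled by TMM and genes kept by filterByExpr, which left 12668. The difference was tested with edgeR 4.0.16 (quasi-likelihood F test, robust, R 4.3.3), with Benjamini-Hochberg adjustment over all tested genes and a threshold of 0.05. SE is the log2 fold change divided by the root of F. CPM per kb used the deposited exon length. Libraries held 16730846 to 18214283 reads in genes, and the floors and the binomial intervals within litters cover counting error only, since no molecular identifiers are recorded in the sources used here. The 95% intervals of log2 fold changes come from the edgeR fit and rest on the spread between libraries. No pair of libraries agreed within sampling noise (chi-square per degree of freedom 36.9 to 90.4). Tested on simulated counts of 12087 genes for this comparison, the fit recovered 24% of 2-fold, 70% of 4-fold, 92% of 8-fold and 98% of 16-fold changes.

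The labels number the AGM preparations 1 to 3 in both populations and the design text speaks of 3 independent litters, so equal numbers were read as 1 litter. Deviations of same-numbered libraries correlated at 0.13, 0.05 and 0.20 over 12668 genes. The fit with the litter as a block was an alternative, as were other scalings and filters, DESeq2 1.42.0, limma-voom with quality weights (limma 3.58.1) and leaving out each library or litter.

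The members and gene lists were chosen with earlier results of these data known. Named were all members, up to 4 called genes per direction of each list by p or else its 2 highest genes, the 3 further network genes, Mrc1, and the 3 profiles most like those of Myc and of called members. Nop58, Ncl, Srm, Ppan, Pa2g4, Shmt1, Bop1, Nolc1, Ruvbl2, Fos, Ddx1, Nbas and Pvt1 were added after their values were seen. Not every marker gene is reported here by name.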

Additional observations from a re-analysis of the deposited data

How the results depend on the processing

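Genes called numbered 617 in edgeR, 703 with the litter as a block and 1210 with DESeq2. They numbered 190 to 561 when 1 library was left out, and 307, 3 and 153 without both libraries of litter 1, 2 and 3. Listed genes called numbered 11, against 21 with the block, 20 with DESeq2, 5 to 11 without 1 library, and 0 and 3 without litters 2 and 3. Of the members, 1 was called, also without any 1 library, against 0 with limma-voom and without litter 2; the block changed no member's call. Mycn passed in 17 of 19 alternatives, at log2 fold changes between -6.47 and -5.36. Those of Myc (-0.68 to -0.24), Mxd1 (0.31 to 1.01) and Mga (-0.77 to -0.19) kept their sign in all 19 and never passed. Signs turned for genes that no fit called, and the cause was not tested. With library totals, which shifted the median of all genes to -0.093, Mnt was at -0.032, Rbbp7 at -0.051, Rbbp4 at -0.037, Rnf2 at -0.014, Top2a at -0.081 and Cdk1 at -0.030. With limma-voom, Max was at 0.12, Mnt at -0.13, Mlx at -0.025 and Rbbp4 at -0.034. With the block, Mnt was at -0.0084. Top2a was at -0.0035 with RLE scaling and with DESeq2, at -0.020 with upper-quartile scaling and at -0.021 without globin, mitochondrial and ribosomal protein genes. Without 1 library, the ranges were -0.30 to 0.32 for Max, -0.18 to 0.53 for Mxd4, -0.14 to 0.80 for Mxi1, -0.32 to 0.19 for Mnt, -0.14 to 0.26 for Mlx and -0.025 to 0.074 for Rbbp7. They were -0.033 to 0.14 for Rbbp4, -0.084 to 0.22 for Rnf2, -0.017 to 0.23 for Acly, -0.18 to 0.0065 for Mcm6, -0.11 to 0.12 for Top2a and -0.027 to 0.15 for Cdk1. Without litter 1, Max was at 0.32, Mnt at -0.29, Mlx at -0.15, Rbbp4 at -0.092 and Mcm6 at 0.10. Without litter 2, Mxd4 was at -0.36, Rbbp7 at -0.077 and Top2a at -0.089, and without litter 3, Rbbp4 was at -0.015, Rnf2 at -0.14, Acly at -0.0074 and Cdk1 at -0.019. Mycl did not pass the stricter filter. With 3 libraries a group, changes of 2-fold were seldom recovered in simulation (24%), which limits all members but Mycn.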
